A study of Mus musculus with 12 samples.

Results

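The replication-dependent histone genes are the clustered genes that supply most of the H1, H2A, H2B, H3 and H4 protein of dividing cells. Members were all genes of the count table whose GRCm38-era symbol begins with Hist1h, Hist2h, Hist3h or Hist4h, matched through the Entrez identifiers of the table to RefSeq on GRCm38.p6. The table holds 17523 genes, of which 66 were members, while the RefSeq annotation lists 70. Hist1h1t, Hist1h2aa, Hist1h2aj and Hist1h2ba had no row. The 66 members comprised 5 H1, 18 H2A, 18 H2B, 12 H3 and 13 H4 genes. On chromosome 13 lay 52 Hist1 genes, on chromosome 3 lay 10 Hist2 genes, on chromosome 11 lay 3 Hist3 genes, and Hist4h4 lay on chromosome 6. Hist1h2al and Hist3h2bb are annotated as transcribed pseudogenes, and Hist1h2al, at chr13:51200084-51203066, lies outside the main Hist1 cluster. The filter on low values was passed by 63 members and not by Hist1h2bf, Hist1h4j and Hist2h2ab.

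The RNA came from splenic CD4+ T cells of Gr/fr mice aged 2 to 3 months, a GM-CSF reporter and fate-reporter line on the C57BL/6 strain. In this line an allele of Csf2, the gene for GM-CSF, carries iCre with a blue fluorescent protein, and a Rosa26eYFP allele turns YFP on permanently in any cell in which iCre has acted. YFP+ cells therefore expressed GM-CSF at some time, ongoing or past, and the YFP- cells come from the same untreated mice and carry the same alleles. Naïve cells (CD44-) and effector memory cells (TEM, CD44hi) were sorted, and each was divided by YFP, which gives 4 groups of 3 libraries. Libraries held from 40974124 to 57822269 reads on genes, with a median of 44929387.5. The sorted state showed in the markers. Cd44 averaged 2831 normalized counts in naïve YFP-, 2940.4 in naïve YFP+, 22015 in TEM YFP- and 26861 in TEM YFP+ cells, and Cd4 averaged 41908, 42259, 62916 and 60154 in the same order. Replicate 3 of every group had high Ddx3y, from 3869 to 4242 normalized counts, and little Xist, while replicates 1 and 2 were high in Xist.

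Core histones H2A, H2B, H3 and H4 wrap DNA into nucleosomes and H1 binds the linker between them. Most transcripts of the replication-dependent genes have no introns and end in a conserved stem-loop in place of a poly(A) tail, the stem-loop is bound by Slbp, and the transcripts build up during S phase and are degraded when DNA synthesis ends. Genes for variants such as H3.3 and H2A.Z are transcribed through the cell cycle and yield ordinary polyadenylated mRNA.

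The stem-loop that gives these RNAs their unusual end was found in the GENCODE transcript models of 45 of the 66 members. It spans 16 bases, with 6 pairs around a loop of 4, and began from 21 to 58 bases after the stop codon, with a median of 31. Models of 15 members ended within 60 bases of the stop codon without reaching one, 2 members had no coding model, and 4 members (Hist1h2bc, Hist2h2be, Hist1h2bq and Hist1h2br) had longer models without one. There were 8 distinct sequences. Those of the most common H1, H2A, H2B and H3 form, the most common H4 form and 4 forms of members whose levels or changes are given further on are shown, because the stem-loop is what most members share beyond the coding region. Capitals mark the paired stem and lower case the loop.
Hist1h1c: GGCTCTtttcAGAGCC
Hist1h4i: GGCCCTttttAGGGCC
Hist1h4d: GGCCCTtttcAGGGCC
Hist1h3c: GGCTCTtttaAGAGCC
Hist1h3g: GGCTCTtcttAGAGCC
Hist1h4a: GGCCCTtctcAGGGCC
The form of Hist1h1c was carried by 26 members, 3 of them H1, 10 H2A, 8 H2B and 5 H3 genes, and that of Hist1h4d by 7 H4 genes. The form of Hist1h3c was shared by 5 members (Hist1h2bb, Hist1h2bk, Hist1h3c, Hist1h3e and Hist1h3f) and that of Hist1h4i by 2, while those of Hist1h3g and Hist1h4a had 1 member each. In 18 members, among them Hist1h1c, Hist3h2a, Hist2h3c1 and Hist4h4, a transcript model ran on for more than 300 bases past the stem-loop.

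The promoters also shared elements. In windows from 250 bases before to 50 bases after the start, taken from RefSeq GRCm38.p6 for 59 of the 66 members (60 windows), CCAAT on either strand occurred in 51 windows or 85%, and in 37.4% of 32851 windows of all genes. Every H1, H2A, H2B and H3 window had it, while 3 of 12 H4 windows did. At least 2 copies were present in 43 windows (71.7% against 11.7%), and all 33 H2A and H2B windows had them. The TATA box TATAAA, on either strand, occurred in 33 windows (55% against 13.6%). The octamer ATTTGCAT, on either strand, occurred in 12 (20% against 1.74%), of which 6 were H2A and 6 H2B windows. The H1 box AAACACAAA was in 2 windows (3.33% against 0.767%) and in 0 of 5 H1 windows. Its shorter core AAACACA, examined after that result was seen, was in 4 of 5 H1 windows and 6 of all 60 (10% against 7.18%). Windows of Hist1h3a, Hist2h2be, Hist1h2al, Hist1h3f, Hist3h2bb, Hist1h2bc and Hist2h4 were not in the promoter set. A match describes the sequence and is no evidence of a bound site.

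In 12 places an H2A and an H2B gene are transcribed away from each other with 163 to 267 bases between their starts. The bases between 3 such pairs, read on the + strand of GRCm38.p6, are shown because the shared stretch stood between genes of very different level. Capitals mark CCAAT boxes, the TATA box and the octamer.
Hist3h2a and Hist3h2bb (chr11:58954513-58954684): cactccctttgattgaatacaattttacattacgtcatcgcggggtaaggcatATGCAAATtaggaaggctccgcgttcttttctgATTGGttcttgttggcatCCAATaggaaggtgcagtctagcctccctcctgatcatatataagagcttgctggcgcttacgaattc
Hist1h2ad and Hist1h2bf (chr13:23574208-23574380): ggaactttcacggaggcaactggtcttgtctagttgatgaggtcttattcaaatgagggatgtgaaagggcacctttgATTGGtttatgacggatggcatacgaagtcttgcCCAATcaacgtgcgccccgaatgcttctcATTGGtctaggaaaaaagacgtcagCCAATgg
Hist2h2ac and Hist2h2be (chr3:96220881-96221071): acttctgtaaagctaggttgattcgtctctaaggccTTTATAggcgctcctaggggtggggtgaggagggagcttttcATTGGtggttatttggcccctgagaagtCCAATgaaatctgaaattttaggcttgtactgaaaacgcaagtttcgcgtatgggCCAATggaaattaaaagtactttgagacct
Per kilobase of RefSeq span, Hist3h2a averaged 1475 normalized counts and its partner Hist3h2bb 19.1, and Hist1h2ad averaged 62.9 and Hist1h2bf 5.63. In both pairs the H2A gene was higher in 12 of 12 libraries on normalized counts. The H2B gene was the higher one in all 12 libraries for Hist2h2ac (24.6 normalized counts) with Hist2h2be (422) and for Hist1h2ac (27.5) with Hist1h2bc (181). These last values are not per length, because the annotated spans of Hist2h2be and Hist1h2bc exceed 1000 bases. The 250 bases before the start of 4 members are shown for the following reasons. Hist1h4a and Hist1h1b had the largest fitted increases in YFP- and YFP+ cells, and Hist1h3g rose in both. Hist1h1c was the most abundant member by normalized count. Capitals mark CCAAT boxes, the TATA box and the core AAACACA, and each is written on the strand of its gene.
Hist1h1b (chr13:21780626-21780875, - strand): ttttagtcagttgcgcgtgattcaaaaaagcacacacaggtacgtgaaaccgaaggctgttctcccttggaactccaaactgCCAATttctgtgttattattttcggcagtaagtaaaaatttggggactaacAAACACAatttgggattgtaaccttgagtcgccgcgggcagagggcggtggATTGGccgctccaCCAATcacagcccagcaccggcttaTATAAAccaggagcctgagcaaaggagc
Hist1h1c (chr13:23738557-23738806, + strand): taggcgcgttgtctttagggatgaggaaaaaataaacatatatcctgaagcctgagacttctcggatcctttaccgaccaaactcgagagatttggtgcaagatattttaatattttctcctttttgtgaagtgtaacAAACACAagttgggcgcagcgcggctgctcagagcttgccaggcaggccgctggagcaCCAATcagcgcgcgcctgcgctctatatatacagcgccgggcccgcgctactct
Hist1h3g (chr13:23535168-23535417, + strand): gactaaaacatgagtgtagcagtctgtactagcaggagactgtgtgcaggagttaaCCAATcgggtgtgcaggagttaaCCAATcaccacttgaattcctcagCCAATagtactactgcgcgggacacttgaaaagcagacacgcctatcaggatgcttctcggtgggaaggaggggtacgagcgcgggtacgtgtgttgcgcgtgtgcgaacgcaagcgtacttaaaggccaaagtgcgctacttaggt
Hist1h4a (chr13:23761250-23761499, - strand): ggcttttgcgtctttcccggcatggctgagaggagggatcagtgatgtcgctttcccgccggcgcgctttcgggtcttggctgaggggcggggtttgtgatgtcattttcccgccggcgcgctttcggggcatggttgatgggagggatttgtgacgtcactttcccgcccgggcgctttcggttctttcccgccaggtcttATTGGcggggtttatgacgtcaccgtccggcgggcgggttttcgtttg
Hist1h1b and Hist1h1c each held the core AAACACA, 117 and 112 bases before the start. Hist1h3g held 3 CCAAT boxes, and Hist1h4a held 1, on the other strand.

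Histone reads were few. All members together took 0.0120% of the reads in naïve YFP-, 0.0110% in naïve YFP+, 0.0105% in TEM YFP- and 0.00788% in TEM YFP+ cells. The median member averaged 15.8 normalized counts against 455 for all genes, 24 members averaged under 10, 30 between 10 and 50, 3 between 50 and 100, 5 between 100 and 500 and 4 between 500 and 1000. Only 4 members stood above the all-gene median. The 10 most abundant members by mean normalized count were Hist1h1c (801), Hist3h2a (749), Hist2h2aa1 (569), Hist2h2aa2 (547), Hist2h2be (422), Hist1h2bc (181), Hist3h2ba (144), Hist2h3c1 (125), Hist1h4i (117) and Hist1h1e (92.7), and they held 78.4% of the summed mean. Level per kilobase was taken over the RefSeq span, for members of at most 1000 bases. It was highest for the H2A genes Hist3h2a (1475), Hist2h2aa1 (1024) and Hist2h2aa2 (917) and the H1.2 gene Hist1h1c (1104). Next came the H2B gene Hist3h2ba (311), the H4 gene Hist1h4i (289.8) and the H3 gene Hist2h3c1 (188). This order depends on the annotation. Hist3h2a spans 508 bases in RefSeq and 2146 in GENCODE exons, and Hist1h1c 725 and 1560. GENCODE exons of Hist2h2aa1 and Hist2h2aa2 span 586 and 528 bases.

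**Figure D1:**
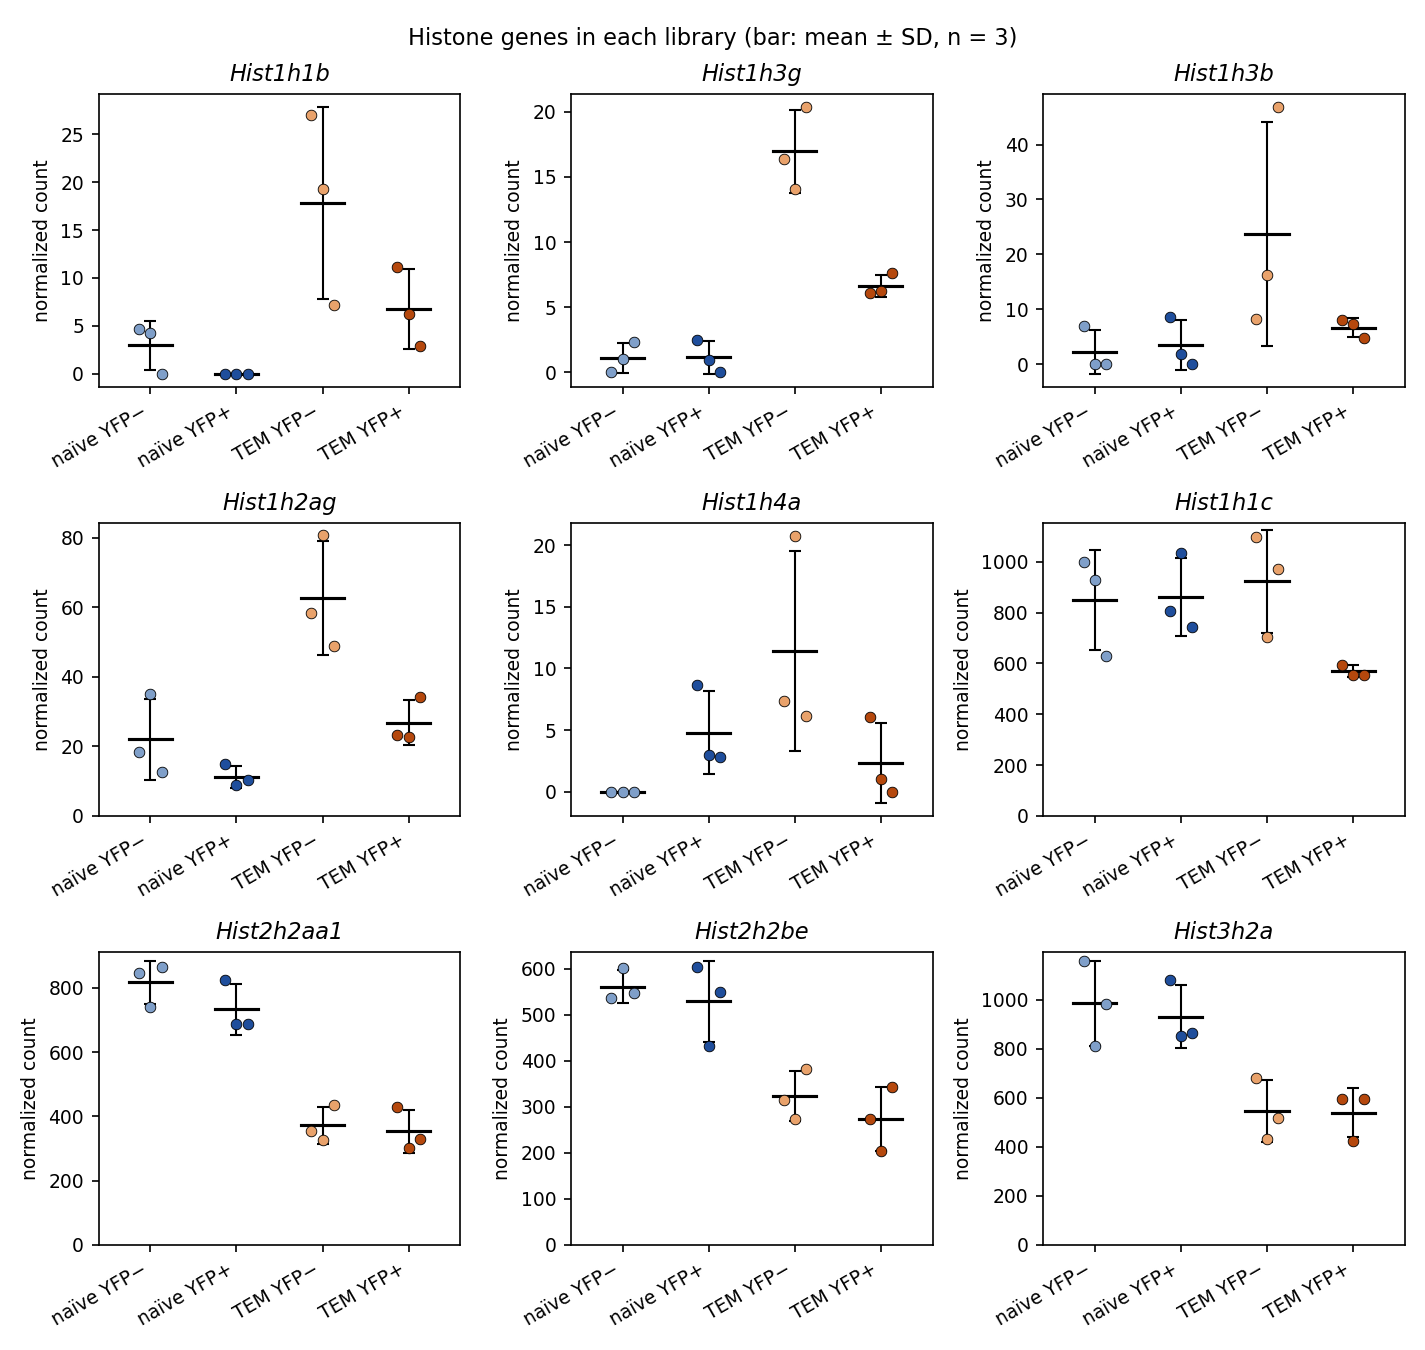
Normalized counts of Hist1h1b, Hist1h3g, Hist1h3b, Hist1h2ag, Hist1h4a, Hist1h1c, Hist2h2aa1, Hist2h2be and Hist3h2a in each of the 12 libraries. Bars give the group mean and SD (n = 3). The Hist2 and Hist3 members shown have lower means in TEM groups. Hist1h3g and Hist1h4a are at or near 0 in naïve YFP- libraries and above 0 in TEM YFP- libraries. Quantile normalization turns the median change of all tested Hist1 members in YFP- cells below 0.

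In YFP- cells, the comparison of TEM with naïve cells asks how histone RNA differs between resting and antigen-experienced cells. The abundant H2A genes Hist2h2aa1, Hist2h2aa2 and Hist3h2a, the H3 genes Hist2h3c1 and Hist2h3c2, the H2B gene Hist2h2be and the H2A pseudogene Hist1h2al fell. Scarce genes of the Hist1 cluster rose, namely 7 of the 12 H3 genes, the H4 gene Hist1h4a, the H1.5 gene Hist1h1b, 2 H2A and 2 H2B genes, although Hist1h3g alone of them was still called higher with quantile normalization. Limma called 13 of the 63 tested members higher (20.6%) and 7 lower (11.1%), where it called 29.9% of all 15587 genes higher and 19.9% lower. Both shares of the members lay below those of all genes, a difference that was not tested. TMM factors gave 12 and 7, edgeR 9 and 7 and DESeq2 10 and 7, while quantile normalization called 1 higher (1.59%, against 23.0% of all genes) and 25 lower (39.7%, against 38.0%) and itself moved the median of all genes to -0.20. Hist1h2bg, 1 of the H2B genes that rose, lost its call in 10 of 23 alternatives, among them TMM factors, a pseudocount of 0.1 and limma without the trend. Hist1h2bm, Hist1h3c and Hist1h3d lost theirs with edgeR and with DESeq2, Hist1h3e with edgeR and Hist1h1b with DESeq2.

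Hist2h2aa1 (Entrez 15267) had 847, 742 and 864 normalized counts in the 3 naïve YFP- libraries and 355, 327 and 437 in the 3 TEM YFP- libraries. Hist3h2a (Entrez 319162) had 1159, 812 and 984 against 682, 433 and 518. Hist2h3c1 (Entrez 15077) had 127, 137 and 268 against 68.9, 44.5 and 118. In all 3 genes every TEM library lay below every naïve library, and for Hist2h3c1 the highest TEM library came close to the lowest naïve library. On the log2 scale Hist2h2aa1 fell by 1.14 (SE 0.16, limma adjusted p = 7.28e-05), Hist3h2a by 0.86 (SE 0.20, limma adjusted p = 0.00285) and Hist2h3c1 by 1.22 (SE 0.37, limma adjusted p = 0.0161). The call of Hist2h3c1 was lost without naïve YFP- replicate 3 or TEM YFP- replicate 2. Hist2h2aa2, whose coding sequence is identical to that of Hist2h2aa1, changed by -1.10, Hist2h3c2 by -1.11, Hist2h2be by -0.81 and the pseudogene Hist1h2al by -1.38. Hist1h1c, the most abundant member by normalized count, had 997, 926 and 628 in naïve and 1097, 702 and 969.8 in TEM YFP- libraries. Its groups overlapped (log2 difference 0.12, limma adjusted p = 0.64).

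The members that rose had few reads. Hist1h3g (Entrez 97908), an H3 gene, had 0, 1.06 and 2.30 normalized counts in naïve YFP- and 16.4, 14.1 and 20.4 in TEM YFP- libraries. The H3 gene Hist1h3i (Entrez 319153) had 6.91, 0 and 0 against 13.1, 19.3 and 28.5. The H4 gene Hist1h4a (Entrez 326619) had 0, 0 and 0 against 7.38, 20.7 and 6.11. In these 3 genes the groups did not overlap. A group with at most 3 reads in every library was set to a floor of 3 reads per library, and folds against it are lower bounds. Hist1h3g rested on 59 reads in TEM and 3 in naïve libraries and was at least 5.04-fold higher (limma adjusted p = 0.000674). Hist1h4a had 43 reads against 0 and was at least 3.39-fold higher (limma adjusted p = 0.00217). Hist1h3i rested on 70 and 6 reads, a ratio of 8.80 with a counting interval from 3.85 to 24.8 (limma adjusted p = 0.00195). Such intervals and floors cover counting error only, and fitted fold changes at this level depend on the pseudocount. Hist1h3b (log2 difference 3.30, SE 0.98) and Hist1h3d (3.11, SE 1.11) also rose, but Hist1h3d had 4.92 in 1 TEM library and 6.91 in 1 naïve library and lost its call with limma without the trend, with edgeR, with DESeq2 and without any of 4 libraries (naïve YFP- replicates 2 and 3, TEM YFP- replicates 2 and 3), while Hist1h3b lost it without naïve YFP- replicate 2, naïve YFP- replicate 3 or TEM YFP- replicate 3. Hist1h2ag, an H2A gene with more reads, had 18.4, 35.0 and 12.7 against 58.2, 80.8 and 48.9 (log2 difference 1.55, SE 0.42, limma adjusted p = 0.00864).

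In YFP- cells level and cluster went with direction. Of the 10 most abundant members 0 were called higher and 5 lower (median log2 difference -0.68), and of the other 53 tested 13 were called higher and 2 lower (median 0.97, but -0.55 with quantile normalization). Of 50 Hist1 members 13 were called higher and 1 lower (median 1.00, but -0.46 with quantile normalization), and of 13 Hist2, Hist3 and Hist4 members 0 and 6 (median -0.81). The shares higher were 24.5% of the other 53 and 26% of Hist1 members, both below the 29.9% of all genes. The shares lower were 50% of the 10, 46.2% of the Hist2, Hist3 and Hist4 members, 3.77% of the other 53 and 2% of Hist1 members. Of all genes 19.9% were called lower, and these differences were not tested. The median of all tested members was 0.46 against 0.05 for all genes, which is 0.41 above it, and with quantile normalization it was -0.83, which is -0.63 relative to all genes. It was 0.17 with a filter on the mean of 10 or more and 0.30 without TEM YFP- replicate 2. The 13 fell to 5 with a filter on the mean of 10 or more and to 7 higher without TEM YFP- replicate 2. The filter admits genes that are high in a single group, so these counts and medians describe the members that passed and are no test of the family.

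**Figure D2:**
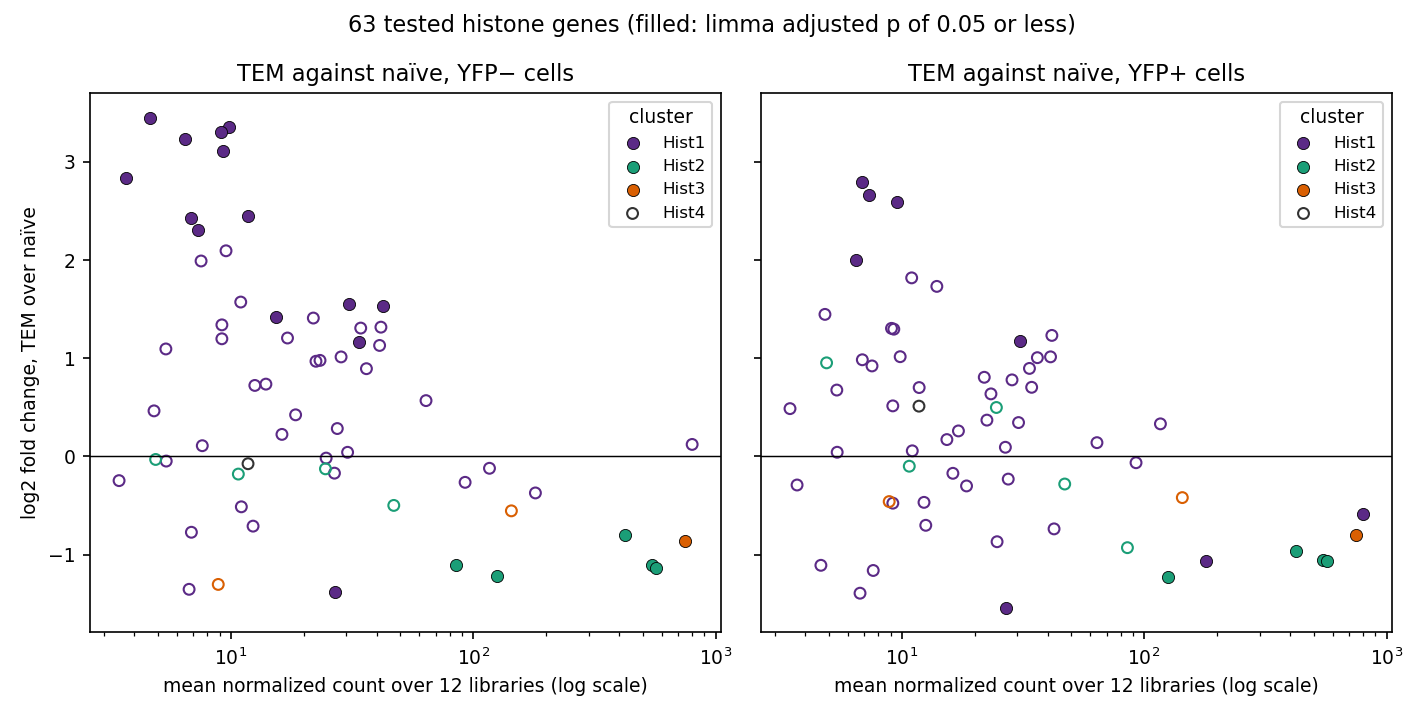
Log2 difference between TEM and naïve cells of each tested member against its mean normalized count (log axis), in YFP- and in YFP+ cells, with colours for cluster and filled symbols for called members. Members called higher had low mean counts and members called lower were mostly abundant, a split of 13 and 7 in YFP- cells that became 1 and 25 with quantile normalization (39.7% of members lower, against 38.0% of all genes).

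The YFP+ fractions answer the same question for cells with a GM-CSF history. Hist2h2aa1, Hist2h2aa2, Hist2h3c1, Hist2h2be, Hist3h2a, Hist1h2al, the H1.2 gene Hist1h1c and the H2B gene Hist1h2bc fell, and 5 scarce Hist1 genes rose, although none of these was called with quantile normalization. Limma called 5 of 63 members higher (7.94%, against 24.7% of all genes) and 8 lower (12.7%, against 16.7%), and quantile normalization, which moved the median of all genes to -0.14, called 0 higher (against 19.7% of all genes) and 15 lower (23.8%, against 29.7%). The median of the tested members was 0.26, which is 0.23 above that of all genes, and with quantile normalization it was -0.65, which is -0.52 relative to all genes. It was 0.07 with a filter on the mean of 10 or more, 0.13 with a pseudocount of 5, 0.10 without naïve YFP+ replicate 3 and 0.15 without TEM YFP+ replicate 1. Comparisons of YFP- and of YFP+ cells use different libraries, but each shares its groups with the YFP comparisons that follow.

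Hist1h1c (Entrez 50708) had 805, 1033 and 744 normalized counts in naïve YFP+ and 595, 555 and 554 in TEM YFP+ libraries. Hist1h2bc (Entrez 68024) had 209, 209 and 264 against 128, 69.4 and 139.7. Hist2h2aa1 had 824, 689 and 686 against 429, 301 and 329.8. All TEM YFP+ libraries lay below all naïve YFP+ libraries in the 3 genes. Hist1h1c fell by 0.58 on the log2 scale (SE 0.20, limma adjusted p = 0.0323), Hist1h2bc by 1.06 (SE 0.29, limma adjusted p = 0.0108) and Hist2h2aa1 by 1.06 (SE 0.16, limma adjusted p = 0.000178). The call of Hist1h1c was lost with limma without the trend and without naïve YFP+ replicate 2 or any TEM YFP+ replicate. Hist2h2aa2 (-1.06), Hist2h3c1 (-1.23), Hist2h2be (-0.97), Hist3h2a (-0.80) and Hist1h2al (-1.54) also fell, and the call of Hist2h3c1 was lost without naïve YFP+ replicate 3 or TEM YFP+ replicate 2.

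Among those that rose, Hist1h1b (Entrez 56702), which encodes H1.5, had 0, 0 and 0 normalized counts in naïve YFP+ and 11.1, 6.21 and 2.85 in TEM YFP+ libraries. That is 20 reads against 0, at least 2.14-fold higher with the floor (limma adjusted p = 0.0100). The H3 gene Hist1h3c (Entrez 319148) had 0, 0.984 and 1.86 against 9.10, 11.4 and 10.5, or 31 reads against 3, at least 3.27-fold higher (limma adjusted p = 0.0104). Groups did not overlap for either gene. Hist1h3g rested on 20 against 3 reads (at least 2.10-fold) and lost its call with a pseudocount of 0.1 and without naïve YFP+ replicate 3 or TEM YFP+ replicate 3. The H2B gene Hist1h2bj rested on 41 against 3 reads (at least 4.31-fold) and lost its call with a pseudocount of 0.1, with limma without the trend and without any of naïve YFP+ replicates 1 and 3, TEM YFP- replicates 1 and 2, and TEM YFP+ replicates 1 and 3. Hist1h2ag, at 14.8, 8.85 and 10.2 against 23.3, 22.8 and 34.2 (log2 difference 1.18, limma adjusted p = 0.0413), lost its call without the filter, with the 6 libraries alone and without any of 7 libraries, which were naïve YFP+ 2 and 3, TEM YFP- 1 and 3 and all TEM YFP+ libraries. Of the 10 most abundant members 0 were called higher and 7 lower (median -0.88), and of the other 53 tested 5 and 1 (median 0.50, but -0.46 with quantile normalization). Of 50 Hist1 members 5 were called higher and 3 lower (median 0.43), and of 13 Hist2, Hist3 and Hist4 members 0 and 5 (median -0.46). The shares higher were 9.43% of the other 53 and 10% of Hist1 members, against 24.7% of all genes. The shares lower were 70% of the 10, 38.5% of the 13, 6% of Hist1 members and 1.89% of the other 53, against 16.7% of all genes. The 5 members called higher fell to 1 with that filter on the mean. They fell to 3 without TEM YFP- replicate 1 or TEM YFP+ replicate 1. Without naïve YFP+ replicate 3 or TEM YFP+ replicate 3 they fell to 2.

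Summed over all 66 members, the normalized counts were 6061, 5517 and 5652 in naïve YFP-, 5794, 5055 and 5137 in naïve YFP+, 4772, 4051 and 4788 in TEM YFP-, and 3947, 3025 and 3556 in TEM YFP+ libraries. Every TEM library was below every naïve library, and every TEM YFP+ library below every TEM YFP- library, although the latter groups overlapped with quantile normalization (ratio 0.905). Means (± SD, n = 3) were 5743 ± 283, 5329 ± 405, 4537 ± 421 and 3509 ± 463, so that TEM over naïve was 0.79 in YFP- and 0.66 in YFP+ cells, and 0.473 and 0.47 over the tested members with quantile normalization. The sums were not tested. In these bulk samples a smaller number of cells of a type and less RNA per cell cannot be told apart. The sum is carried by few genes: the 10 most abundant members went from a mean of 4796 to 3099 in YFP- and from 4508 to 2584 in YFP+ cells. The other 56 had 903, 1011 and 927 in naïve YFP- against 1384, 1495 and 1434 in TEM YFP- libraries (ratio 1.52, groups apart), a direction that turned with quantile normalization (0.541 over the 53 tested). In YFP+ cells they had 897, 737 and 829 against 1078, 817 and 881 (ratio 1.13, groups overlapping, 0.528 with quantile normalization). The share of the 10 most abundant members in the sum went from 83.5 to 68.0% in YFP- and from 84.6 to 73.6% in YFP+ cells.

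**Figure D3:**
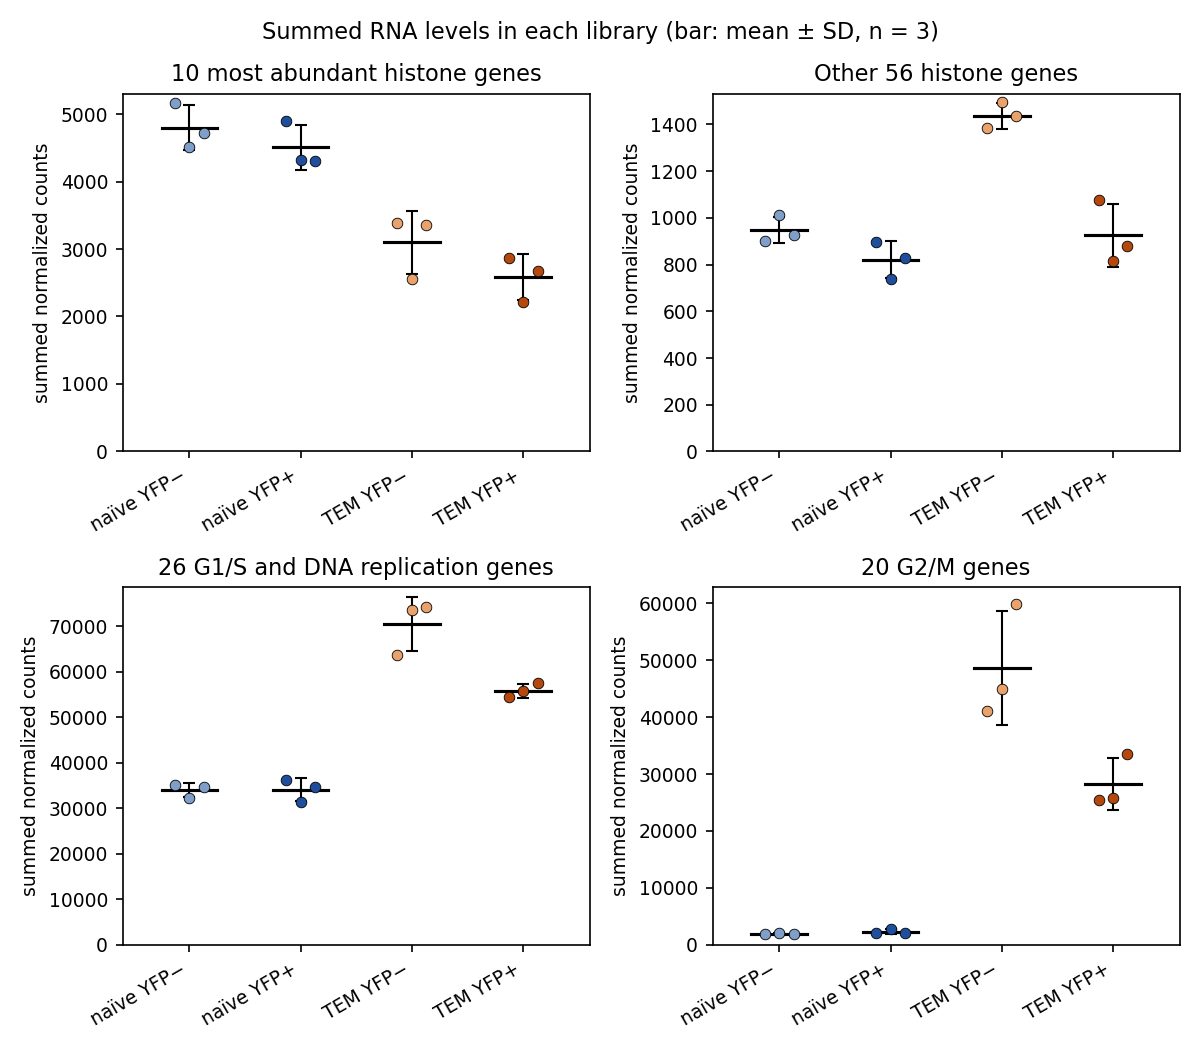
Summed normalized counts in each library, with group means and SD (n = 3). Panels show the 10 most abundant members, the other 56, 26 G1/S and DNA replication genes and 20 G2/M genes. The 10 most abundant were lower in all 6 TEM libraries than in all 6 naïve libraries, and the other 56 were highest in TEM YFP- libraries, which turned to a ratio of 0.541 to naïve YFP- libraries with quantile normalization.

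By family, TEM over naïve of the summed counts in YFP- cells was 1.08 for H1, 0.64 for H2A, 0.81 for H2B, 0.92 for H3 and 1.01 for H4, and only the H2A groups did not overlap, while with quantile normalization H1 (0.812) and H4 (0.372) turned below 1. In YFP+ cells the ratios were 0.71, 0.61, 0.62, 0.68 and 1.04, and only the H4 groups overlapped, H4 turning to 0.526 with quantile normalization. By cluster, Hist2 stood at 0.50 and 0.51 and Hist3 at 0.57 and 0.60 in YFP- and YFP+ cells, with groups apart in each case. Hist1 stood at 1.29 in YFP- cells (groups apart, but 0.678 with quantile normalization) and 0.88 in YFP+ cells (groups overlapping, but 0.551 with groups apart under quantile normalization). The Hist1 share of the sum went from 34.7 to 56.9% in YFP- and from 35.5 to 47.2% in YFP+ cells, and the Hist2 share from 44.6 to 28.0% and from 43.8 to 33.7%.

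Whether a GM-CSF history went with histone RNA within TEM cells was compared between TEM YFP+ and TEM YFP- libraries. No single member passed the test, yet most had lower values in YFP+ cells. Limma called 0 of 63 members, where it called 6.97% of all genes, and 6 members had an unadjusted p under 0.05. EdgeR also called 0, DESeq2 called 2 (3.17%, against 10.2% of all genes), and with the replicate block, in which samples of the same number are paired, limma called 2 (against 1869 of all 15587 genes). Both times these were Hist1h1c and Hist1h2bg, lower in YFP+ cells. Differences were below 0 in 49 of 63 members (77.8%, against 52.7% of all genes), and in 16 (25.4%, against 14.3% of all genes) all YFP+ libraries were below all YFP- libraries. The median was -0.45 against -0.01 for all genes (-0.25 against 0.05 with quantile normalization). It was -0.67 for Hist1 members and -0.08 for Hist2 to Hist4 members, the latter turning to 0.18 with quantile normalization. Over all tested members the median was -0.35 with a filter on the mean of 10 or more. It was -0.34 without TEM YFP+ replicate 2 and -0.51 without TEM YFP+ replicate 1. The filter on low values admits genes that are high in TEM YFP- libraries alone. These counts and medians therefore describe the members that passed and are no test of the family.

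Hist1h2bg, an H2B gene, had 66.4, 54.1 and 143 normalized counts in TEM YFP- and 24.3, 7.25 and 32.3 in TEM YFP+ libraries. Hist1h1c had 1097, 702 and 969.8 against 595, 555 and 554. Hist1h2bm, another H2B gene, had 9.84, 10.4 and 12.2 against 1.01, 1.04 and 0. In each of the 3 genes the groups did not overlap. Outside the TEM YFP- libraries Hist1h2bm reached the 5 normalized counts of the filter only in naïve YFP+ replicate 3 (6.51). Its values thus describe a gene that passed the filter through the group where it was high. The log2 differences were -2.09 for Hist1h2bg (SE 0.58, limma adjusted p = 0.051), -0.67 for Hist1h1c (SE 0.20, limma adjusted p = 0.0663) and -2.88 for Hist1h2bm (SE 0.85, limma adjusted p = 0.0689). Hist1h4a (-2.16), Hist1h2ag (-1.19) and Hist1h3h (-1.81) also had unadjusted p values under 0.05 and limma adjusted p values from 0.128 to 0.282. A pseudocount of 5 brought calls of Hist1h2bg and Hist1h2bm, and a fit of the 6 libraries alone brought calls of Hist1h1c and Hist1h2bm. Leaving out 1 library gave 0 or 1 call, namely Hist1h2bg without naïve YFP- replicate 1 or TEM YFP+ replicate 3, Hist1h1c without naïve YFP- replicate 3, naïve YFP+ replicate 2 or TEM YFP- replicate 2, Hist1h2bm without naïve YFP+ replicate 3 and Hist1h4a without TEM YFP+ replicate 1.

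**Figure D4:**
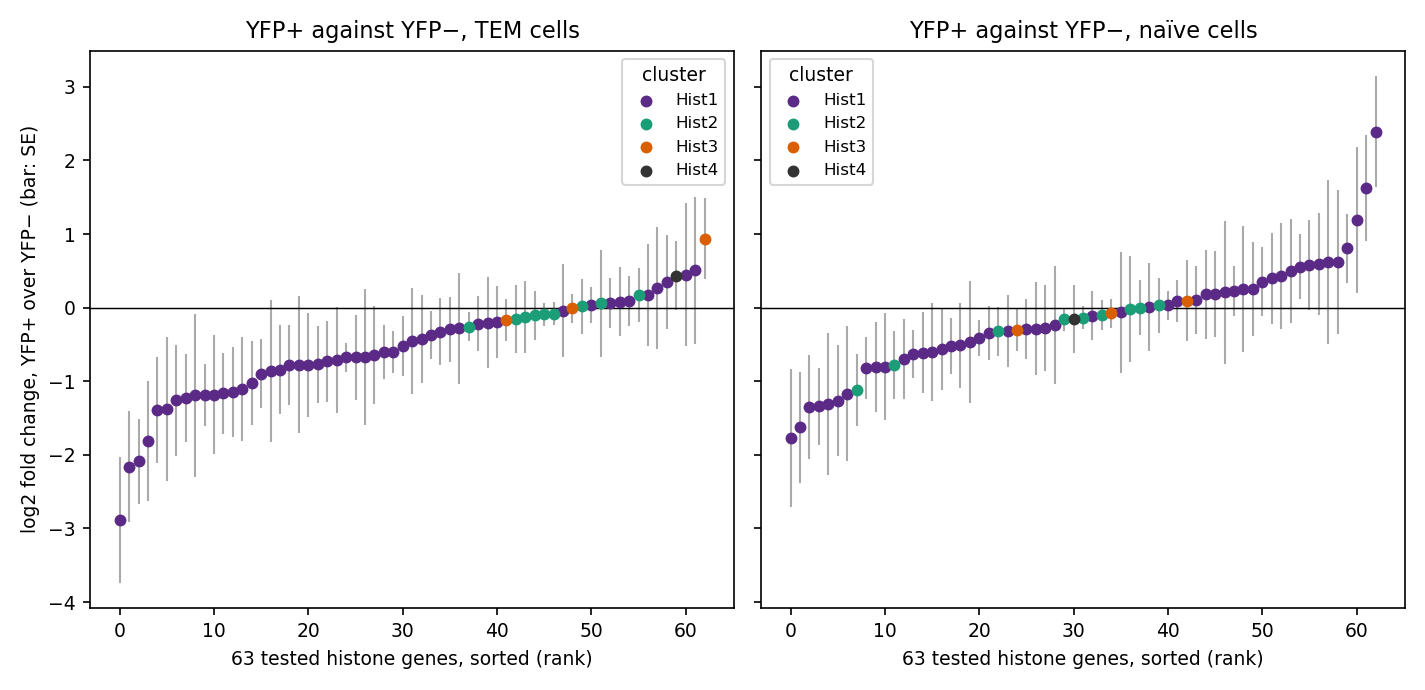
Log2 difference between YFP+ and YFP- cells of each tested member, in TEM and in naïve cells, with SE. Members are sorted by that difference and coloured by cluster, and a line marks 0. Points lie below 0 for 49 of 63 members in TEM cells, 0 members passed the test, and with quantile normalization the median of the Hist2 to Hist4 members turned above 0.

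The same contrast in naïve cells gave no call. Limma called 0 of 63 members (0.00642% of all genes), edgeR and DESeq2 called 0, and 4 members had an unadjusted p under 0.05, which were Hist1h4a (2.39), Hist1h3i (1.62), Hist1h4k (-1.34) and Hist2h2bb (-1.12), each with a limma adjusted p of 1. The median was -0.14 against 0.01 for all genes, and it was -0.33 with quantile normalization, -0.05 without naïve YFP+ replicate 2, -0.23 without naïve YFP+ replicate 1 and -0.20 without naïve YFP- replicate 3.

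The YFP effect itself was compared between TEM and naïve cells by an interaction term. It differed for 1 of 63 members, Hist1h4a, against 3.55% of all genes. This H4 gene had 0 in all naïve YFP- libraries and 8.66, 2.95 and 2.79 normalized counts in naïve YFP+, then 7.38, 20.7 and 6.11 in TEM YFP- and 6.07, 1.04 and 0 in TEM YFP+ libraries. It was thus at its lowest in naïve YFP- and at its highest in TEM YFP- cells, where all libraries exceeded those of TEM YFP+ cells. The difference of the log2 effects was -4.56 (SE 1.07, limma adjusted p = 0.035). Its call was lost in 12 of 21 alternatives, among them edgeR, quantile normalization and a pseudocount of 5, and without any of naïve YFP- replicates 1, 2 and 3, naïve YFP+ replicate 1, TEM YFP- replicates 1, 2 and 3, and TEM YFP+ replicates 2 and 3.

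Variants are histone genes that, for the most part, are expressed outside S phase as well as within it. Of 11 replication-independent variants 7 rose and 1 fell from naïve to TEM in YFP- cells (median 1.20), and 6 rose and 1 fell in YFP+ cells (median 0.63), with 6 and 1 in both under quantile normalization. The shares were 63.6% higher and 9.09% lower in YFP- cells, against 29.9% and 19.9% of all genes. In YFP+ cells they were 54.5% and 9.09%, against 24.7% and 16.7% of all genes. H2afz, for the variant H2A.Z, averaged 5089, 4933, 15465 and 9958 normalized counts in naïve YFP-, naïve YFP+, TEM YFP- and TEM YFP+ cells. It rose by 1.61 and 1.01 on the log2 scale (limma adjusted p = 2.87e-08 and 1.73e-06), and was lower in TEM YFP+ than in TEM YFP- cells (-0.63, limma adjusted p = 0.000842). H2afx, for H2A.X, was lower there too (-0.54, limma adjusted p = 0.00726), and limma did not call the other 9 variants. The 2 called by limma are 18.2% of the variants, against 4.67% of all genes called lower. EdgeR called 2 and DESeq2 3 of the 11 in that comparison, against 7.22% and 10.2% of all genes, and 4 had an unadjusted p under 0.05. H1f0, the gene for linker histone H1.0, averaged 757, 855, 5249 and 4426 and rose by 2.79 and 2.37. The most abundant variants H3f3b, H3f3a and H2afy, which encode H3.3 and macroH2A, were not called, with log2 differences between -0.29 and 0.01. Summed variants over summed members went from 13.6 to 20.7 in YFP- and from 14.2 to 23.2 in YFP+ cells.

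Of 22 genes for histone mRNA synthesis and 3' end processing, 4 rose and 6 fell in YFP- cells (median -0.15) and 3 rose and 6 fell in YFP+ cells (median -0.13), with 3 and 10 and with 3 and 8 under quantile normalization. The shares were 18.2% higher and 27.3% lower in YFP- cells, against 29.9% and 19.9% of all genes. In YFP+ cells they were 13.6% and 27.3%, against 24.7% and 16.7% of all genes. These differences were not tested. Slbp, whose product binds the stem-loop, had 1475, 1534 and 1745 normalized counts in naïve YFP- and 2587, 2818 and 3027 in TEM YFP- libraries, with no overlap (log2 difference 0.83, SE 0.10, limma adjusted p = 2.08e-05), and it rose by 0.80 in YFP+ cells. Lsm11, a part of the U7 snRNP that cleaves histone RNA, fell by 0.73 and 0.61 (limma adjusted p = 0.000161 and 0.000847). Npat (-0.04 and 0.08), the coactivator of histone transcription, Casp8ap2 (-0.18 and -0.14) and the cleavage-factor scaffold Sympk (-0.08 and -0.02) were not called. Upf1 and Zcchc6, which act in histone mRNA decay, fell in YFP- cells (-0.28 and -0.31) and were not called in YFP+ cells (-0.15 and -0.13). Between YFP fractions limma called 0 of the 22 in TEM and 0 in naïve cells (2 and 0 at an unadjusted p under 0.05), as did edgeR and DESeq2. Of 14 histone chaperones 6 rose and 4 fell in YFP- cells (median 0.12) and 3 and 3 in YFP+ cells (median 0.08). Those shares were 42.9% and 28.6% in YFP- cells, against 29.9% and 19.9% of all genes. In YFP+ cells they were 21.4% and 21.4%, against 24.7% and 16.7% of all genes. Chaf1a of the replication-coupled assembly factor rose by 4.65 and 3.92 and Asf1b by 2.02 and 1.40, while Nasp fell by 0.30 and 0.53, and the most abundant, Atrx, Rbbp4 and Ssrp1, were not called. Between the YFP fractions of TEM cells limma called Hat1 alone (-0.31), and Hat1 was not called with TMM factors, quantile normalization or edgeR. The call of Hat1 is 7.14% of the 14 chaperones, against 4.67% of all genes called lower. DESeq2 called 2 of the 14 there, against 10.2% of all genes, and 5 had an unadjusted p under 0.05.

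Cell-cycle genes rose in TEM cells. Of 26 genes for G1/S and DNA replication, 23 rose and 0 fell in YFP- cells (median 1.70) and 21 rose and 0 fell in YFP+ cells (median 1.28), with 24 and 1 and with 19 and 0 under quantile normalization. The shares higher were 88.5% and 80.8%, against 29.9% and 24.7% of all genes. Pcna rose by 0.50 and 0.35 and the replicative helicase gene Mcm6 by 1.51 and 1.22, and Mcm4 was not called (0.19 and 0.07). All 20 G2/M genes rose in both (medians 4.90 and 3.89). The proliferation marker Mki67 averaged 198, 341, 13470 and 8417 normalized counts over the 4 groups (log2 differences 6.07 and 4.64). Summed G2/M counts were 1941, 2037 and 1862 in naïve YFP-, 2144, 2833 and 2035 in naïve YFP+, 41034, 44918 and 59927 in TEM YFP-, and 25513, 25858 and 33560 in TEM YFP+ libraries. TEM YFP+ libraries were thus below all TEM YFP- libraries in this sum, and 4 of the 20 genes (median -0.81), Top2a and Kif11 among them, and 9 of the 26 G1/S genes (median -0.44) were called lower there by limma. These are 20% and 34.6%, against 4.67% of all genes. EdgeR called 6 G2/M and 8 G1/S genes (7.22% of all genes) and DESeq2 17 and 16 (10.2% of all genes), and 17 and 18 had an unadjusted p under 0.05. In all 20 G2/M and in 21 G1/S genes every TEM YFP+ library was below every TEM YFP- library, as in 14.3% of all genes. Of 6 members known for polyadenylated transcripts, 2 fell in YFP- and 4 in YFP+ cells and 0 rose. These are 33.3% and 66.7%, against 19.9% and 16.7% of all genes called lower. The sums of the 6 were 0.75 and 0.59 of the naïve values.

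Markers of other cells were compared between the same groups. From naïve to TEM limma called 29.9% of all genes higher and 19.9% lower in YFP- cells. In YFP+ cells it called 24.7% and 16.7%, and between the YFP fractions of TEM cells 2.30% and 4.67%. All 6 conventional dendritic cell markers were called higher in TEM than in naïve YFP- cells, 4 in YFP+ cells, and 5 were called lower in TEM YFP+ than TEM YFP- cells. Their sums were 76.0, 127 and 86.4 in naïve YFP-, 96.5, 321 and 73.5 in naïve YFP+, 11573, 7918 and 15942 in TEM YFP-, and 995, 458 and 933 in TEM YFP+ libraries, with Itgax the most abundant (8001 in TEM YFP- and 465 in TEM YFP+ cells). The 8 plasmacytoid dendritic cell markers, most abundant Pacsin1, summed to 9358, 8316 and 9448, then 9419.8, 8864 and 9179, then 18169.9, 12897 and 17827, and then 9770, 8998 and 9676 in the same order. Of them 7 were higher in TEM YFP- cells, 4 higher and 2 lower in TEM YFP+ cells, and 6 lower in TEM YFP+ than TEM YFP- cells, and Siglech averaged 0.384, 5.58, 2681 and 66.8, with Klk1 at 0 in naïve YFP- cells. The 7 monocyte, macrophage and neutrophil markers, most abundant Csf1r, summed to 468, 823 and 297, then 716, 3624 and 389, then 7387, 6057 and 11623, and then 3544, 1723 and 2616. Of these 4 were higher in TEM YFP- cells, 1 higher and 1 lower in TEM YFP+ cells, and 2 lower in TEM YFP+ than TEM YFP- cells. The part of such cells in the histone values, which were lower in TEM YFP+ than TEM YFP- libraries in most members, was not tested. The cells were sorted by flow cytometry on CD4 and CD44 among other markers, and the methods describe a purity check of sorted CD4+ cells in the section on T cell culture, without a value.

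**Figure D5:**
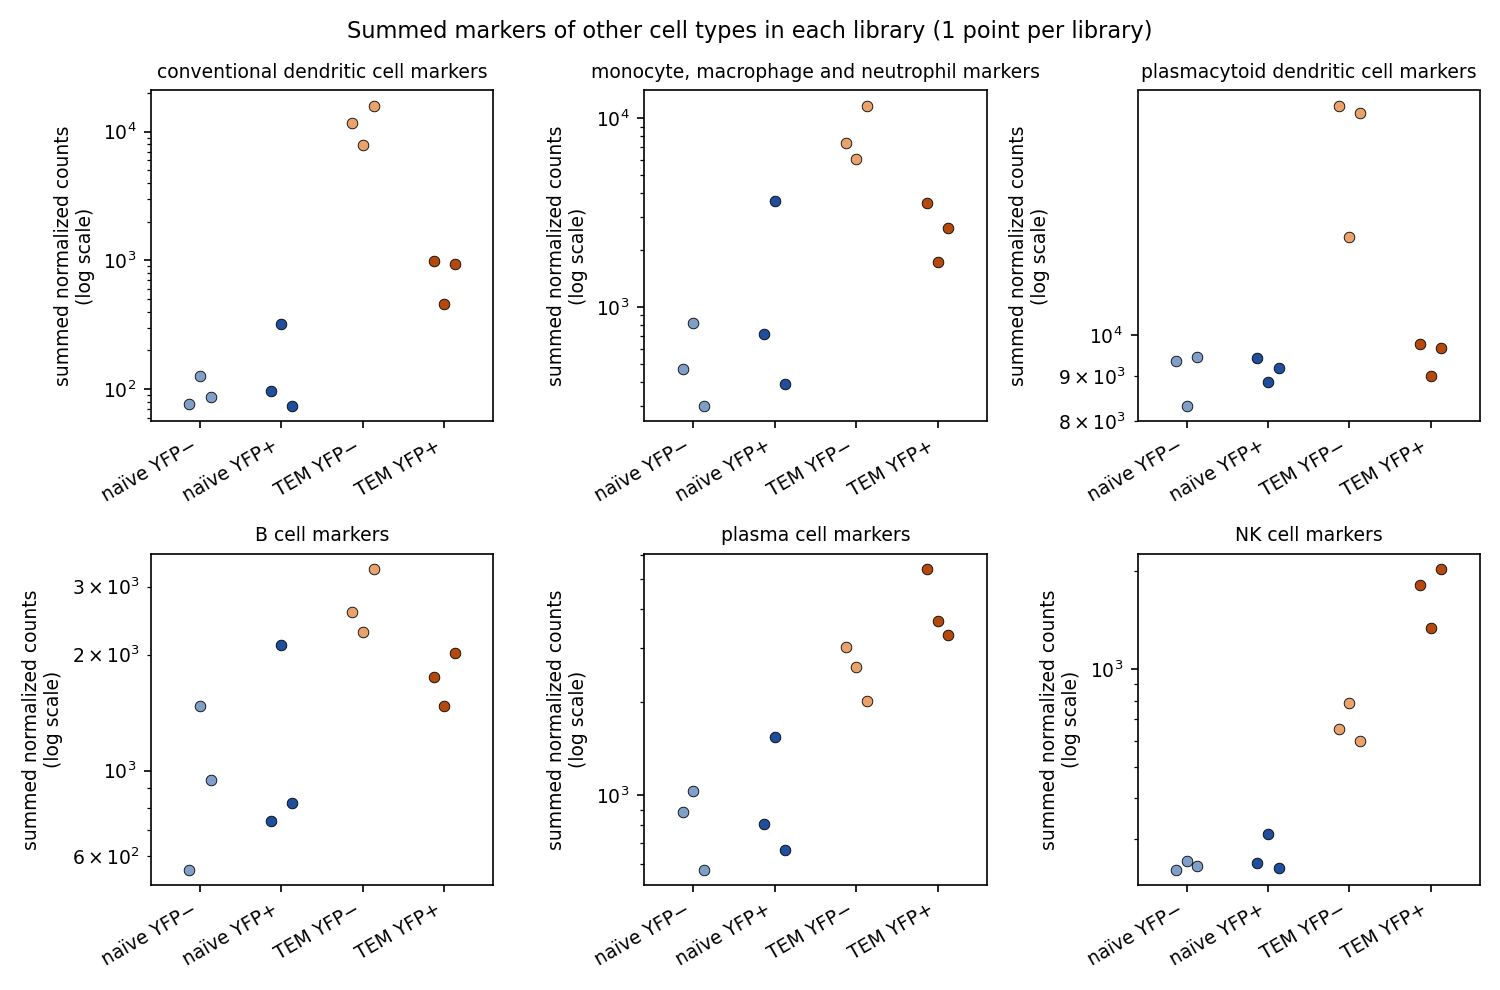
Summed normalized counts (log axis) of marker lists for other cell types in each of the 12 libraries. Conventional dendritic cell markers summed to between 7918 and 15942 in TEM YFP- libraries and to between 458 and 995 in TEM YFP+ libraries.

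Among lymphocyte markers, the 7 B cell genes, most abundant Cd22, summed to 553, 1469 and 945, then 741, 2121 and 823, then 2575, 2289 and 3334, and then 1751, 1467 and 2015. Of these 2 rose and 3 fell in YFP- and 1 rose in YFP+ cells, with 1 higher in TEM YFP+ than TEM YFP- cells, and Cd79a averaged 336, 418, 45.6 and 201. The 2 CD8 genes, most abundant Cd8b1, summed to 1321, 1166 and 1168, then 608, 517 and 500.4, then 1191, 685 and 1490.3, and then 373, 187 and 293, and both were lower in TEM YFP+ than TEM YFP- cells. From naïve to TEM 1 rose and 1 fell in YFP- cells and 1 fell in YFP+ cells. The 3 NK cell genes with a row, most abundant Klrb1c, summed to 241, 256 and 248, then 252, 309.9 and 244, then 654, 786 and 602, and then 1814, 1336 and 2032. Of these 2 and 3 were higher in TEM cells and 2 were higher in TEM YFP+ than TEM YFP- cells, and Ncr1 was at 0 in naïve YFP- and TEM YFP- libraries. The 3 plasma cell genes with a row, most abundant Prdm1, summed to 881, 1032 and 575, then 811, 1549 and 665, then 3011, 2603 and 2026, and then 5389.7, 3672 and 3289, with 3 and 2 higher in TEM cells. The 5 erythroid genes, most abundant Hba-a1, ranged in sum from 48.4 in naïve YFP- replicate 3 to 3702 in naïve YFP+ replicate 2, and limma, edgeR and DESeq2 each called 0 in all 4 comparisons of groups, with 1 gene at an unadjusted p under 0.05 between the YFP fractions of naïve cells and 0 in the others. Of the T cell lists, 2 of 6 CD4 genes rose and 1 fell in YFP- and 1 rose in YFP+ cells, and 4 of 4 effector memory genes rose in both, with 1 higher in TEM YFP+ than TEM YFP- cells. Beside these counts stand the shares of all genes called higher and lower. They were 29.9% and 19.9% from naïve to TEM in YFP- cells and 24.7% and 16.7% in YFP+ cells. Between the YFP fractions of TEM cells they were 2.30% and 4.67%. No test compared such short lists with all genes. The part of cells with these markers in the histone values was not tested either.

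Several values are shared between copies. The coding sequences of Hist1h2ao and Hist1h2ap, Hist1h2bq and Hist1h2br, Hist1h4m and Hist1h4n, and Hist2h2aa1 and Hist2h2aa2 are identical, and the reads of each pair differed by less than counting noise, with a mean squared difference over the sum of 0.110, 0.0820, 0.738 and 0.522. Their reads therefore cannot be assigned with certainty to either copy, and Hist2h2aa1 and Hist2h2aa2 count as 2 calls for what may be 1 measurement. Hist3h2a overlaps Trim17, Hist3h2ba overlaps Gm51864 and Hist1h2be overlaps Gm33387, and the part of the other gene in their reads was not tested. As a description of RNAs without a poly(A) tail, chosen after the data were seen, Rn7sk had from 109 to 236 normalized counts per library, Rmrp from 3.18 to 30.9, Rpph1 from 9.02 to 55.7 and Terc from 1.90 to 19.1. Libraries were made with a kit for total RNA, while the study's methods head the assay as mRNA sequencing, and the part of the library type in the low histone levels was not tested.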

How the data were processed

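Stranded total RNA libraries of splenic CD4+ T cells, 3 in each of 4 groups, were mapped by the submitters to mm10 in DRAGEN and assigned to genes with Rsubread. The deposited signal is a normalized count, made by the authors from read counts by division through one DESeq2 size factor per library. Annotation, strand setting and versions are not given in the sources used here. Whole reads were recovered from 100% of values (tolerance 0.01), size factors were recomputed from them, and 0 columns were unused. From 40974124 to 57822269 reads per library lay on genes.

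Of 17523 Entrez identifiers, 16756 had a symbol. Names, coordinates and promoters came from RefSeq GRCm38.p6, and transcript models and stem-loops from GENCODE vM21. Genes with 5 or more normalized counts in 3 or more libraries (15587) were taken as log2 of value plus 1 and fitted with limma 3.58.1 in R 4.3.3 by 4 group means, with an eBayes trend on 8 residual degrees of freedom. Benjamini-Hochberg adjustment ran over all fitted genes, and an adjusted p of 0.05 or less made a call. Comparisons were TEM with naïve cells in each YFP fraction, YFP+ with YFP- cells in each cell state, and the difference of the last 2. Counting intervals cover reads alone, folds of called members against a group with at most 3 reads in every library are lower bounds, and the smallest exact permutation p of 3 against 3 libraries is 0.1. The fitting steps were tested on simulated data.

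Members and gene lists were chosen with earlier results of these data known. Named were the 10 members of highest mean, up to 5 called members with the largest increase and up to 5 with the largest decrease in each of the 5 comparisons, the 3 genes of highest mean in each list, and always Slbp, Npat, Casp8ap2, Lsm11, Mki67, Pcna, Cd4 and Cd44. Of the genes and lists that this rule covers, 1 gene and 1 list are not reported here. Other members and list genes in the text were chosen after their values were seen.

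The replicate numbers were checked for pairing by correlating residuals of libraries with the same number. Coefficients were 0.306 to 0.491 between YFP fractions of naïve and 0.180 to 0.356 of TEM cells. They were 0.137 to 0.232 between TEM and naïve YFP- and -0.0199 to 0.204 between TEM and naïve YFP+ libraries. Only in the latter did they overlap those of libraries with different numbers (-0.167 to 0.0781). Ddx3y was high in replicate 3 of all 4 groups. The main fit did not pair samples. Between the YFP fractions of TEM cells it called 1087 of 15587 genes, against 1869 with the replicate block. Alternatives were pseudocounts of 0.1 and 5, no filter, a mean of 10 or more, TMM factors, quantile normalization, a replicate block, limma without trend, the 6 compared libraries alone, edgeR 4.0.16 quasi-likelihood and DESeq2 1.42.0 tests on the reads, absolute log2 fold changes of at least 1 and at least 2, and omission of each library. After seeing the data, identical coding sequences were counted once, and members overlapping another gene were left out.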

Additional observations from a re-analysis of the deposited data

Results flagged for a closer look

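The YFP effect of Hist1h4a was called different between TEM and naïve cells by a test of the difference itself, an interaction term. The log2 difference YFP+ minus YFP- was 2.39 in naïve and -2.16 in TEM cells, and the difference of these effects was -4.56 (SE 1.07, limma adjusted p = 0.035). The call was lost in 12 of 21 alternatives, over which the value ranged from -8.89 to -2.06. Naïve YFP- libraries held 0 reads of this gene, so these fitted values depend on the pseudocount.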

How the results depend on the processing

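In YFP- cells the 13 members higher in TEM cells became 5 with a mean of 10 or more, where fewer genes were tested, and 1 with quantile normalization, and the 7 lower became 25 with quantile normalization, which moved the share of all genes called lower from 19.9 to 38.0%. In YFP+ cells the 5 higher became 3 with a pseudocount of 0.1, 1 with a mean of 10 or more and 0 with quantile normalization, and the 8 lower became 15 with quantile normalization (all genes from 16.7 to 29.7%). Where the absolute log2 difference also had to reach 2, 0 members were lower in YFP- cells and 3 were higher and 0 lower in YFP+ cells, and where it had to reach 1, 5 were lower in YFP+ cells. Between the YFP fractions of TEM cells, 0 calls became 2 with a pseudocount of 5, 2 with the replicate block, 2 with the 6 libraries only and 2 with DESeq2. Pairing by the replicate block moved no other count by over 1.5 times and ended the call of 0 members. Between the YFP fractions of naïve cells every alternative gave 0. The 1 call of the interaction became 0 with a pseudocount of 5, with a mean of 10 or more, with quantile normalization and with edgeR, and a fit of 6 libraries cannot give this value.

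Leaving out 1 library gave 7 to 15 members higher in TEM YFP- cells (7 without TEM YFP- replicate 2, 15 without naïve YFP+ replicate 2), 2 to 5 higher in TEM YFP+ cells, 0 to 1 between YFP fractions of TEM cells, and 0 to 1 for the interaction, where Hist1h3i replaced Hist1h4a without naïve YFP- replicate 1. Apart from the filters and fold change limits, the cause was not tested. Counting identical coding sequences once or leaving out members overlapping another gene, both chosen after seeing the data, moved no count by over 1.5 times.

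Of 768 alternative values of called members, 662 kept direction and side of the threshold, 104 kept direction but lost the call and 2 reversed. Of the 104, 60 were in YFP- cells, 32 in YFP+ cells and 12 in the interaction. The 2 that reversed were Hist1h3e (-0.0448) and Hist1h2ad (-0.30) in YFP- cells, both with quantile normalization. Hist2h3c2 lost its call in YFP- cells without naïve YFP- replicate 3, TEM YFP- replicate 1 or TEM YFP- replicate 2, and with the 6 libraries only.

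Depth limits the scarce members. Where no library of a group held more than 3 reads, a called member has a lower bound in place of a fold, and log2 differences at such levels depend on the pseudocount. With 3 libraries against 3 an exact permutation of labels does not go below 0.1, so calls rest on the variance limma shares across genes. Which fractions of cells contributed the reads cannot be told from bulk RNA.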
